A study of Mus musculus with 703 samples.

Results

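Expression of 10 immediate early genes, Fos, Fosb, Egr1, Arc, Junb, Atf3, Nr4a1, Nr4a3, Ier2 and Btg2, was followed by bulk RNA sequencing in gastrocnemius muscle, in 469 untreated and 234 metformin-treated mice with 1 library each. Their rows in the count table were found by gene symbol, and all 10 were present among its 19088 genes. The mice came from 20 CC-RIX strains, each the F1 cross of a pair of Collaborative Cross inbred lines, so that animals of one strain and sex share a genome. Every animal ate a purified diet with added fiber, holding either 10% fat (the control) or 44% fat, from 6 weeks of age. The paper calls the diet compared with the control a high-fat, high-sugar one, so the diets may differ in more than fat. Part of the animals also received metformin, an antidiabetic drug, at 5 mg/mL in the drinking water; the others had none. No strain carried an engineered allele. The untreated mice were 236 females and 233 males, with 234 animals on 10% fat and 235 on 44% fat. The metformin groups held 57 females and 59 males on 10% fat and 59 animals of each sex on 44% fat. Each strain gave between 22 and 38 animals, of which 10 to 26 were untreated. Metformin began at 7 months and was given only within the cohort killed at 12 months, whereas untreated mice were killed at 6 or at 12 months and the labels give no age for a single animal. Treatment and age therefore cannot be told apart.

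Immediate early genes are switched on within minutes of a stimulus, without new protein synthesis, by transcription factors that are already in the cell, such as the serum response factor (SRF) with its ELK partners and the cAMP-responsive factor CREB. Their messenger RNAs are short-lived, so that a steady level reports recent signalling. In skeletal muscle they are known to respond to contraction, stretch, injury, catecholamines, and to the handling and ischaemia that accompany tissue collection. Most of the 10 encode transcription factors that start a second wave of expression. Fos, Fosb and Junb are subunits of the AP-1 dimer, and Atf3 is a stress-induced relative of them. Egr1 is a zinc finger factor of the EGR family. Nr4a1 and Nr4a3 are orphan nuclear receptors that regulate glucose and lipid metabolism in muscle. Ier2 is a nuclear regulator of growth-factor responses, Btg2 is an antiproliferative co-factor of mRNA deadenylation, and Arc, best known at the synapse, encodes a capsid-forming cytoskeletal protein.

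The libraries held between 27368536 and 96100529 expected counts, with a median of 47876086, and mitochondrial transcripts took 5.65% to 16.5% of them. The myofibre markers Acta1 and Ckm had median levels of 21600 and 13200 CPM, the unit used throughout for counts scaled by library size, and were present in every library. Transcripts of 15 libraries did not match the labelled sex and those of 4 libraries lay closest to another strain than the labelled one, 19 libraries in all, and 79 libraries carried high levels of hepatocyte transcripts. The numbers in the sequencing identifiers fell into 2 ranges, a lower one with 544 animals and an upper one with 159. The upper range held 69 of the 469 untreated and 90 of the 234 metformin animals, so the range was a term in every fit. What the ranges stand for is not given in the labels.

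The proximal promoters show one element that the choice of genes did not use. The 250 bases before the RefSeq start of each gene are printed for the 7 members with an entry that can be shown here (GRCm38.p6, 5′ to 3′ on the strand of the gene), and capitals mark every match to a searched motif on either strand. Arc, Egr1 and Ier2 are named only. In the deposited annotation (GRCm38) Fos lies at chr12:85473890-85477273, Fosb at chr7:19302696-19310051, Junb at chr8:84976909-84978748, Atf3 at chr1:191170296-191218039, Nr4a1 at chr15:101266846-101274792, Nr4a3 at chr4:48045153-48086447, Btg2 at chr1:134075170-134079120, Arc at chr15:74669083-74672570 and Ier2 at chr8:84661331-84662852. The Atf3 window thus precedes a start inside the annotated gene, and the Nr4a3 and Fosb windows reach past the annotated starts of their genes. An exon of Junb overlaps one of Prdx2 on the other strand, and without a stated strand setting their reads there cannot be told apart.
Fos, chr12:85473640-85473889, + strand: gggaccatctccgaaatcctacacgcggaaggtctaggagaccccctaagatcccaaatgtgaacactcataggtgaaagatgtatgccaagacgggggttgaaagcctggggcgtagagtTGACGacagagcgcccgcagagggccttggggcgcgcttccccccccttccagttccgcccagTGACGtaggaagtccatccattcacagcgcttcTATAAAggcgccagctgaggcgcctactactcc
Fosb, chr7:19310046-19310295, minus strand: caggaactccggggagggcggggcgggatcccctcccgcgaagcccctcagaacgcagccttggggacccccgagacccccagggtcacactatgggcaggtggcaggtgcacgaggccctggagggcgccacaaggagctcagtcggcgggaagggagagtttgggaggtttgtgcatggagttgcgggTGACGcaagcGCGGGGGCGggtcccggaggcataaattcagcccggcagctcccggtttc
Junb, chr8:84978749-84978998, minus strand: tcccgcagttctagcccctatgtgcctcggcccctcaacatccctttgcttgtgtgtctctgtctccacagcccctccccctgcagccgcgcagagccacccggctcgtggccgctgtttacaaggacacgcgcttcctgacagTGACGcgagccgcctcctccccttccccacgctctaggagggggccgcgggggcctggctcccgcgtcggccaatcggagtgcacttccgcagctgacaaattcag
Atf3, chr1:191183334-191183583, minus strand: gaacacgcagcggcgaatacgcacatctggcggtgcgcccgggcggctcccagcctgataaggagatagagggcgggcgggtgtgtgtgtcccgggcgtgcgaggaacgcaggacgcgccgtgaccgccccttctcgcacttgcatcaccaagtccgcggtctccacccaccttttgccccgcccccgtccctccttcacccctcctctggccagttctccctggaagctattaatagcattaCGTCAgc
Nr4a1, chr15:101266596-101266845, + strand: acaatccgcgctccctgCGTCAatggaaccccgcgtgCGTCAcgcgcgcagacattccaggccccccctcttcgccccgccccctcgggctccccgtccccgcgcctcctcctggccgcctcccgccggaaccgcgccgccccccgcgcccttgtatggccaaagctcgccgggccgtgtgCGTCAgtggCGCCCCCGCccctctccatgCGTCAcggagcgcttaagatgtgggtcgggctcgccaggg
Nr4a3, chr4:48045055-48045304, + strand: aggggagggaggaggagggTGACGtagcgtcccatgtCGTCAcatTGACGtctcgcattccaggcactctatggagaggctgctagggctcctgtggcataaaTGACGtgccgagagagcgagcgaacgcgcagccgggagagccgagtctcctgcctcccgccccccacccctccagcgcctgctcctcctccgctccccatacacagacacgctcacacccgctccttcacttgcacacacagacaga
Btg2, chr1:134079156-134079405, minus strand: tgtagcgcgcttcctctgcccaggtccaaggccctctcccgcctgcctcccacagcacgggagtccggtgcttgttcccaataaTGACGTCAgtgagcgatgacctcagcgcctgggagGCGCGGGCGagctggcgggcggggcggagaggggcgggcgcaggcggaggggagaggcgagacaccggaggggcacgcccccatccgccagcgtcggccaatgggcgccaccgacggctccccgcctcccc

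The letters TGACG, searched on both strands as all motifs were, are the core of the site bound by CREB and ATF proteins and were in all 7 windows, against 17.8% of 32851 RefSeq promoter windows of the same length. Nr4a1 and Nr4a3 held 4 copies each, Fos and Btg2 held 2, and Fosb, Junb and Atf3 held 1. The full palindrome TGACGTCA, which contains the core on both strands, was in the window of Btg2 alone among the 7 and in 1.55% of all windows. The EGR site GCGNGGGCG was in the windows of Fosb, Nr4a1 and Btg2 and in 4.7% of all windows. A TATAAA sequence was in the Fos window and in 12.4% of all windows. The AP-1 site TGANTCA, the CArG box bound by SRF and the NR4A site AAAGGTCA were in none of the 7 windows, and in 6.75%, 1.47% and 1.34% of all windows. These matches describe letters in the sequence and no binding was measured. Only full matches inside the windows were counted, and sequence farther from the start was not searched. Arc, Egr1 and Ier2 had no window. A motif without a match here, such as the CArG box, may therefore still lie elsewhere near these genes or occur in a variant form.

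The 10 genes differed widely in level. Per kilobase of annotated exon, Nr4a1 was by far the most abundant, with a median of 20.5 CPM per kb, followed by Btg2 at 3.97 and Atf3 at 2.07. Ier2, Junb, Fos, Egr1 and Nr4a3 lay between 1.98 and 1.01 CPM per kb. Arc at 0.197 and Fosb at 0.0449 CPM per kb were the lowest, with median counts of 29 and 14 per library, and 6 libraries had no count of Arc and 17 none of Fosb. For these 2 genes a difference between single animals is limited by counting error. The interquartile ranges of Ier2, Junb, Fos, Egr1 and Nr4a3 overlapped, and that of Atf3 (1.31 to 3.51 CPM per kb) overlapped both theirs and that of Btg2 (3.13 to 5.1 CPM per kb), so the order from Btg2 down to Nr4a3 is not fixed between neighbours.

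The spread between animals was wide for several members and moderate for the others. Nr4a3 ran from 0.45 to 152 CPM around a median of 6.06 CPM, and its 95th percentile was 39.3 times its 5th. Fosb ran from 0 to 11 CPM, Atf3 from 0.705 to 100 CPM, Fos from 0.482 to 35.9 CPM and Egr1 from 1.05 to 47.6 CPM. Ier2 and Nr4a1 were the tightest, with highest values 3.27 and 3.63 times their medians. Once strain, sex, diet and identifier range were fitted in the untreated animals, the residual standard deviation on the log2 scale was 1.41 for Nr4a3, 1.13 for Fosb, 1.04 for Atf3, 0.96 for Fos and 0.89 for Egr1 and Arc. Btg2 at 0.59, Junb at 0.57, Nr4a1 at 0.49 and Ier2 at 0.42 varied less, and the median gene of the table had 0.29. Nr4a3 thus lay at percentile 98.9 of all genes tested and Ier2 at percentile 63.9. In bulk muscle, more cells expressing a gene and more RNA per cell cannot be told apart.

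**Figure D1:**
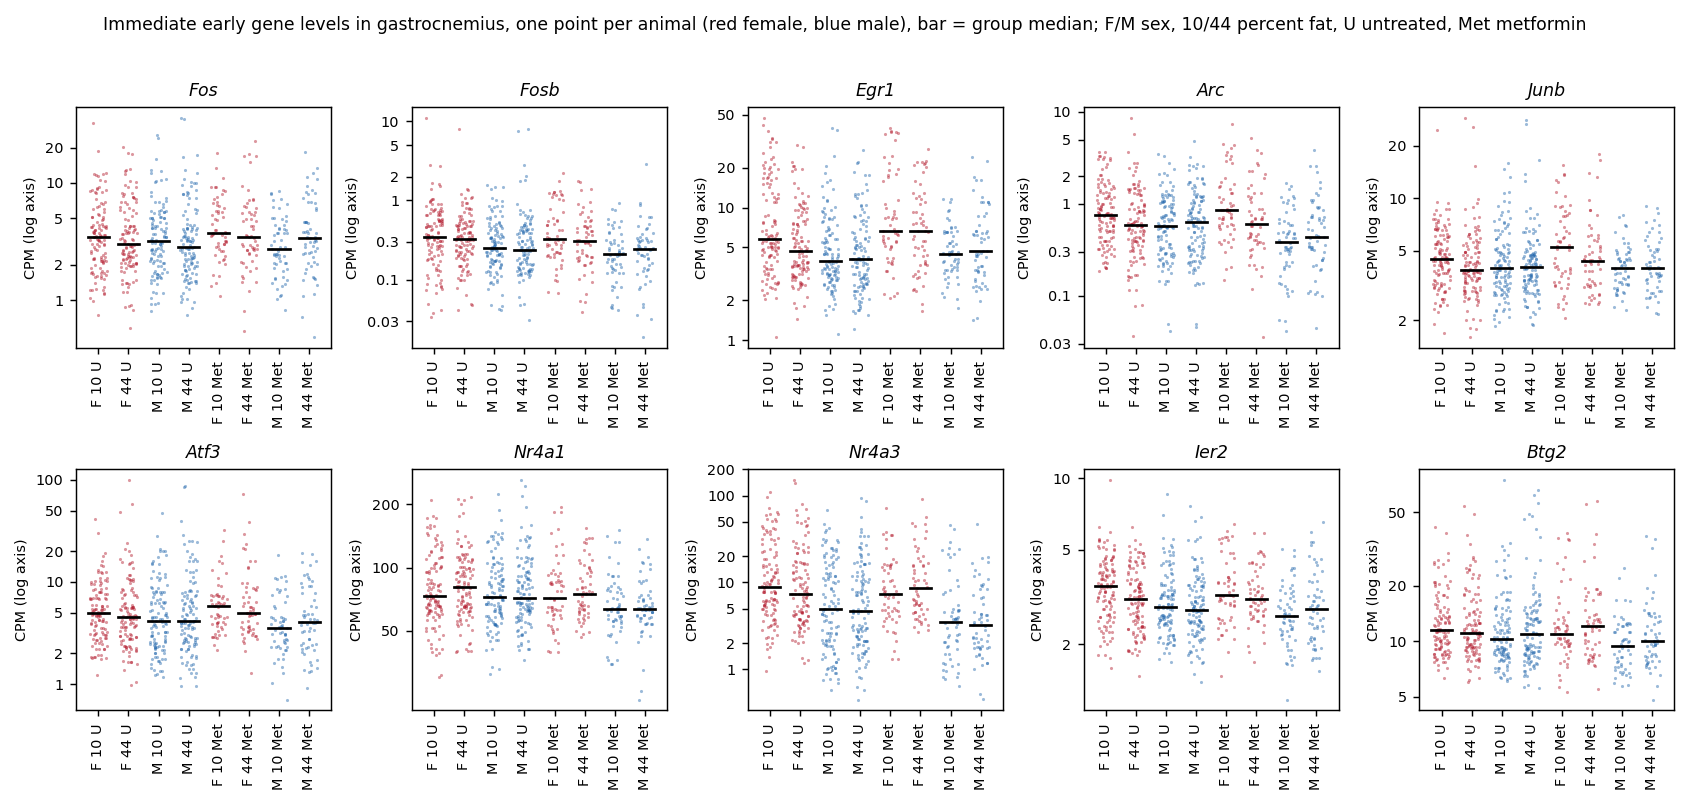
Levels of the 10 immediate early genes in CPM (log axis) in the 8 groups of sex, percent fat and treatment, 1 point per animal and a bar at the group median. The 17 libraries with no Fosb count and the 6 with no Arc count cannot be drawn on the log axis. The 5th to 95th percentile range within each group was wider than the distance between the highest and lowest group medians for every gene.

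High values were not spread evenly over animals. Nr4a3 exceeded 4 times its median in 96 animals (13.7%), Egr1 in 49, Arc in 46, Atf3 in 40, Fosb in 36 and Fos in 23, and Nr4a1 and Ier2 in none. In 529 animals no member lay above 4 times its median, while 33 animals had 2 such members, 23 had 3, a few had from 4 to 7 and the others had 1. The animal with the highest Fos was an untreated one on 44% fat, with Fos at 35.9, Fosb at 7.56, Atf3 at 85.1, Nr4a1 at 262, Nr4a3 at 92.8 and Btg2 at 66.1 CPM, while its Egr1 reached 10.5 and its Ier2 3.97 CPM. The animal with the highest Atf3 (100 CPM) and Nr4a3 (152 CPM) had Egr1 at only 3.89 and Junb at 4.25 CPM, close to their medians of 4.92 and 4.15 CPM. The animal with the highest Ier2 (9.84 CPM) had Egr1 at 42 CPM but Nr4a3 at 2.51 CPM. The members therefore rose in more than one combination.

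Covariation between animals was measured on residual log2 CPM after strain, sex, diet, treatment and identifier range were fitted, over all animals of both treatments. Of the 45 pairs of members, 43 were correlated by a two-sided permutation test with Benjamini-Hochberg adjustment over the 45 pairs, all of them positively, and the median Pearson r was 0.39. With so many animals small values are called, down to r = 0.09 (Egr1 with Nr4a1), and the share called among pairs of all genes was not computed. The 95th percentile of r with all other genes was 0.11 for Fos and 0.26 for Nr4a3, the lowest and highest of the members. Beside these, the median r with the other members was 0.57 for Fos and 0.20 for Nr4a3. The strongest pair was Fos with Egr1 (r = 0.70, Spearman rho = 0.68, adjusted permutation p = 1.2e-05, the smallest these permutations can give). Egr1 with Ier2 followed at r = 0.68 (rho = 0.64), Atf3 with Nr4a3 at 0.67 (rho = 0.64), Junb with Btg2 at 0.66 (rho = 0.59), and Fos with Btg2 and Junb with Ier2 at 0.63 each (rho = 0.59 and 0.63). Without the 2 animals farthest from the median of the first gene of a pair, these 6 values lay between 0.62 and 0.70. The pairs left out of the 43 were Egr1 with Nr4a3 (r = -0.03, rho = -0.04, adjusted permutation p = 0.36) and Nr4a3 with Ier2 (r = 0.06, rho = 0.05, adjusted permutation p = 0.15).

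Average linkage of the 45 correlations put Nr4a1, Nr4a3 and Atf3 on one branch and the other 7 members on the other. Within the AP-1 subunits, Fos was correlated with Fosb at 0.57 and with Junb at 0.59. Btg2 stood between the branches, with 0.59 for Atf3 and for Nr4a1 beside 0.66 for Junb. The place of Nr4a1 was not firm either, with 0.59 for Btg2 and 0.49 for Junb beside 0.41 for Atf3 and 0.40 for Nr4a3. Within the lower identifier range the same 45 pairs gave 43 calls with a median r of 0.37, and 1 of these was negative, the pair of Egr1 and Nr4a3 at -0.09. Within the upper range they gave 43 calls, all positive, with a median r of 0.44. Egr1 with Nr4a3 was 0.17 there. Whether the correlations differ between ranges was not tested.

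**Figure D2:**
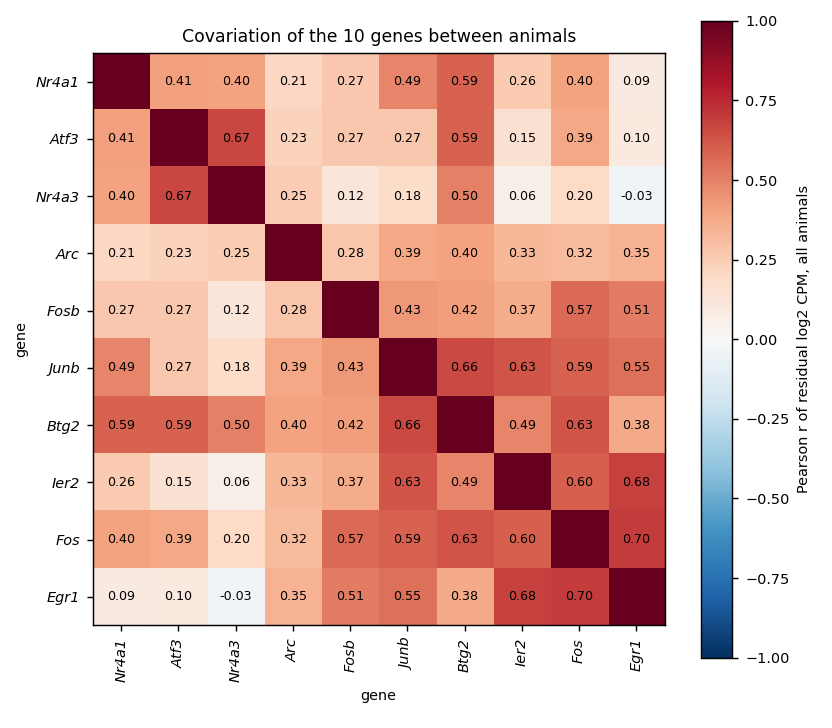
Pearson r of residual log2 CPM for the 45 pairs of members over all animals, untreated and metformin-treated. Fos, Egr1 and Ier2 form one block of high values and Atf3 with Nr4a3 another at 0.67, and the cell of Egr1 and Nr4a3 is at -0.03.

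Other genes are placed against the members as a description, since the points share libraries. Over 11997 other genes, those whose mean log2 CPM was 0 or more, the mean r with the 10 members had a median of 0 and a 95th percentile of 0.15. The most alike were Apold1, an endothelial immediate early gene, at 0.47, the deubiquitinase Otud1 at 0.46, Csrnp1 at 0.45, the salt-inducible kinase Sik1 at 0.43, and Klf2 and Midn at 0.41 each. Dusp1, Rhob, Klf4 and Klf6 followed at 0.39. For 8 of these 10 genes the closest member was Btg2, and Sik1 reached 0.75 with it. Egr3 was closest to Egr1 (0.59) and had 0.07 with Nr4a3. Nr4a2, the remaining gene of the nuclear receptor family, was closest to Btg2 (0.66) and had 0.61 with Nr4a1, 0.59 with Nr4a3 and 0.02 with Egr1. Dusp1, a phosphatase that switches MAP kinases off, had 0.62 with Fos. Rcan1, an inhibitor of calcineurin, had 0.66 with Atf3 and 0.63 with Nr4a3 but -0.05 with Egr1. Crem, which includes the cAMP-induced repressor ICER, had 0.66 with Nr4a3 and -0.14 with Egr1, and the clock gene Per1, itself cAMP-responsive, had 0.62 with Nr4a1. Gadd45b ran the other way, at -0.62 with Nr4a3.

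The summed heat shock genes had r = 0.70 with Nr4a3, 0.60 with Atf3, 0.47 with Btg2, 0.33 with Nr4a1 and -0.09 with Egr1. The sum of circadian clock genes had between -0.24 and 0.04 with the members. Single clock genes went both ways and farther from 0, so that their sum hides them. Per3 had -0.48 with Atf3 and -0.46 with Nr4a3, whereas Arntl had 0.27 with Atf3 and Per1 0.40 with Nr4a3. The sum of the upstream factors, which include Srf, Elk1, Creb1 and Crem, had between -0.18 and 0.10. Here too the sum hides single genes that went both ways. Crem had 0.66 with Nr4a3 and 0.56 with Atf3, whereas Mkl1 had -0.44 and Crtc3 -0.35 with Nr4a3, and Elk3 had -0.39 with Nr4a1. Sums of the markers of 10 cell types had between -0.23 (endothelial cells with Nr4a1) and 0.20 (macrophages with Arc), hepatocyte markers between -0.02 and 0.09, and the total count between -0.01 and 0.08. Within the upper identifier range several of these sums were farther from 0. There myofibre markers had -0.36 with Egr1 and -0.30 with Fos, macrophage markers 0.32 with Egr1 and with Arc, and endothelial markers -0.29 with Nr4a3. In that range the summed clock genes had between -0.40 and -0.09 and the summed upstream factors between -0.36 and -0.09. The share of mitochondrial transcripts had between -0.17 (Ier2) and -0.01 (Nr4a3). Animals with neighbouring sequencing identifiers (407 pairs) had r between -0.07 for Atf3 and 0.15 for Ier2, beside a median gene of 0.08. The part of any of these in the covariation was not tested.

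Strain differences were present for all 10 members in the untreated animals (edgeR quasi-likelihood F test, 19 degrees of freedom, adjusted p from 2.2e-48 for Arc to 5.1e-09 for Fos), beside 95.4% of the 16384 genes tested, so a call alone says little. Arc stood out in size: strain accounted for 39.9% of its variance, at percentile 85.2 of all genes, beside a median gene of 15.3%. For the other members strain accounted for 18.3% (Egr1) to 7.66% (Fosb). Arc had medians of 1.74 CPM (range 0.637 to 3.65) in (CC004/TauUncJ x CC019/TauUncJ)F1 and 0.315 CPM (range 0.0458 to 1.9) in (CC011/UncJ x CC005/TauUncJ)F1, and its fitted strain means spanned 5.12-fold. The same (CC004/TauUncJ x CC019/TauUncJ)F1 animals that led for Arc had the lowest fitted means of Fos, Fosb, Egr1, Nr4a1 and Btg2. Nr4a3 spanned 7.79-fold, from (CC001/UncJ x CC042/GeniUncJ)F1, with a median of 2.67 CPM (range 0.585 to 17.4), to (CC002/UncJ x CC043/GeniUncJ)F1, with a median of 24.1 CPM (range 2.75 to 152). These ranges overlapped between animals. The remaining members spanned between 1.59-fold (Ier2) and 3.28-fold (Atf3). Ordered by level, 17 to 19 of the 19 neighbouring strain pairs differed by less than the sum of their standard errors, so only strains far apart in the order can be told apart.

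Over the 20 strain means, Atf3 and Nr4a3 rose together (r = 0.87), as did Fos and Ier2 (0.76), while Egr1 and Nr4a3 ran against each other (-0.58). The means are shared by animals and the values are descriptions. Grouping strains by parental line was done after their values were seen. All 6 strains that share the parent CC042/GeniUncJ lay among the 9 highest for Egr1, and 5 of them were the 5 lowest for Nr4a3. For Arc, the 3 strains with CC075/UncJ as a parent held ranks 2 to 4, and the 4 with CC019/TauUncJ had ranks of 7 or better, 1 of them tied at 7. These sets overlap, since each of these 3 parental lines was crossed with both others.

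**Figure D3:**
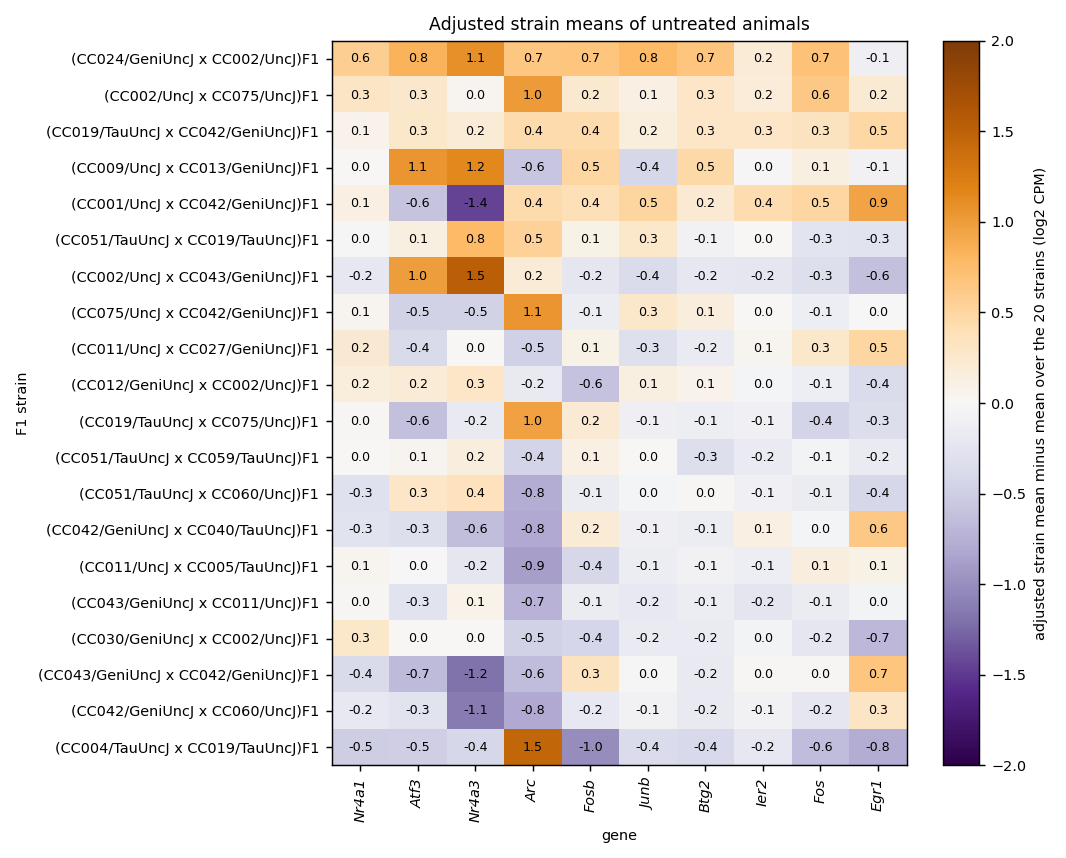
Fitted strain means of the 10 members in untreated animals, on the log2 CPM scale and centred within each gene. Egr1 and Nr4a3 show opposite patterns over the strains (r = -0.58) and Arc and Nr4a3 have the widest ranges, 5.12-fold and 7.79-fold.

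Sex separated 5 of the 10 members in untreated animals, and all 5 were lower in males, beside 37% of all genes lower and 30.1% higher in males (67.1% called). The largest difference was that of Nr4a3, with medians of 7.86 CPM in 236 females (range 0.964 to 152) and 4.81 CPM in 233 males (range 0.45 to 92.8), a log2 difference of -0.67 ± 0.13 (SE, adjusted p = 1.2e-06, edgeR quasi-likelihood test with Benjamini-Hochberg adjustment, as for all tests of differences here). Egr1 had medians of 5.39 CPM in females (range 1.05 to 47.6) and 4.06 CPM in males (range 1.12 to 40.2), and differed by -0.41 ± 0.09 (adjusted p = 1e-05). Each of these was lower in males in 17 of 20 strains. Fosb differed by -0.36 ± 0.12 (adjusted p = 0.0061), Arc by -0.25 ± 0.08 (adjusted p = 0.0039) and Ier2 by -0.14 ± 0.04 (adjusted p = 0.0013). Fos, Junb, Atf3, Nr4a1 and Btg2 had differences between -0.07 and -0.01 and were not called. The sexes overlapped over most of their ranges for every member. Within the lower identifier range Nr4a3 differed by -0.67, Egr1 by -0.37, Fosb by -0.33 and Ier2 by -0.13, all called, and Arc by -0.12 (adjusted p = 0.21). Within the upper range, where 69 untreated animals remain, only Arc was called among the 5, at -0.85 (adjusted p = 0.0054), and Nr4a3 differed by -0.28 (adjusted p = 0.51).

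The relatives of Egr1 followed it in sex. Of 5 other EGR and NR4A genes tested, 4 were lower in males and none was higher: Egr3 by -1.25 ± 0.12, Egr2 by -0.38 ± 0.06 and the EGR co-repressors Nab2 and Nab1 by -0.34 ± 0.04 and -0.14 ± 0.02. The 46 other immediate early genes went both ways, with 16 higher and 14 lower in males. Ptgs2, the inducible cyclooxygenase, differed by -1.02 ± 0.10 and Dusp2 by -0.70 ± 0.08, against 0.93 ± 0.10 for Gadd45g and 0.59 ± 0.05 for Rcan1. Heat shock genes were higher in males for 8 of 10, led by Hspa1b at 0.72 ± 0.14 and Hspa1a at 0.62 ± 0.12. Of 8 other AP-1 subunits, 2 were higher and 1 lower, with Fosl1 at 0.18 ± 0.07. Of 19 upstream factors, 11 were higher and 3 lower, with Srf at 0.27 ± 0.02. Among 15 clock genes 8 were higher and 2 lower, with Per3 at -0.40 ± 0.04 and Arntl at 0.35 ± 0.05. Adipocyte markers were lower in males for 4 of 5 and higher for 1, and none of 8 macrophage markers was called. Their part in the difference was not tested.

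Diet, averaged over strains, moved 1 member. Egr1 fell on 44% fat, from a median of 4.96 CPM in 234 animals (range 1.05 to 47.6) to 4.25 CPM in 235 animals (range 1.22 to 29.7), a log2 difference of -0.30 ± 0.09 (adjusted p = 0.0059), and was lower in 15 of 20 strains. By sex, its medians on 10% and 44% fat were 5.74 and 4.71 CPM in females and 3.98 and 4.07 CPM in males. Its difference was -0.28 in the lower identifier range (adjusted p = 0.028) and -0.41 in the upper range (adjusted p = 0.37). The other 9 members were not called, beside 20.3% of all genes (10.1% higher and 10.1% lower), and the nearest was Ier2 at -0.10 (adjusted p = 0.068). All 5 other EGR and NR4A genes fell with Egr1, Nr4a2 by -0.38 ± 0.13, Egr3 by -0.33 ± 0.12, Nab2 by -0.26 ± 0.04 and Egr2 by -0.20 ± 0.06. Of 46 other immediate early genes 5 were higher and 7 lower on 44% fat, with Ptgs2 at -0.33 ± 0.10, the cytokine-signalling inhibitor Socs3 at -0.32 ± 0.07 and the kinase Pim1 at -0.23 ± 0.05. Of the upstream factors 2 were higher and 6 lower, by at most 0.12 in size (Rps6ka1 at -0.12 ± 0.02). Of the other AP-1 subunits 1 was higher (Mafk at 0.09 ± 0.03), 2 of 10 heat shock genes were lower (Dnajb1 at -0.18 ± 0.06), and the clock genes split evenly, 2 in each direction, with Npas2 at -0.40 ± 0.08. A dependence of the diet difference on sex was not called for any member by the interaction test (0 of 10, beside 0.568% of all genes, with 3 at an unadjusted p under 0.05, and 0 called by limma voom). Egr1 had the smallest p, with a diet difference higher by 0.46 ± 0.17 in males than in females (unadjusted p = 0.009, adjusted p = 0.27), which is more in size than its average difference of -0.30.

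**Figure D4:**
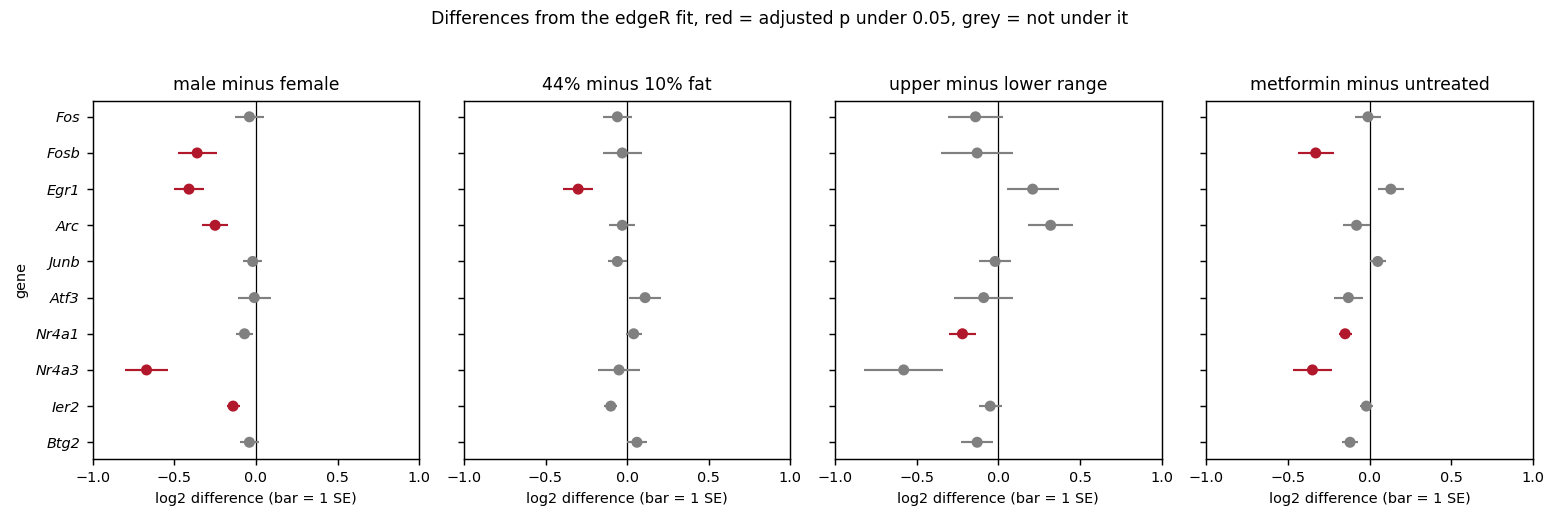
Log2 differences of the 10 members by sex (male minus female), diet (44% minus 10% fat), identifier range (upper minus lower) and metformin (metformin minus untreated), with bars of 1 standard error. Red points were called at an adjusted p under 0.05 and grey ones were not. Nr4a3 has the largest differences by sex (-0.67), range (-0.58, not called) and metformin (-0.35), and every red point lies below 0.

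The diet difference was also compared between strains. It depended on strain for 7 of 10 members, beside 4.13% of all genes: Atf3 (adjusted p = 6.6e-06), Fosb (2.4e-05), Nr4a3 (1.7e-04), Btg2 (3.6e-04), Fos (0.0011), Junb (0.045) and Egr1 (0.049). Arc (adjusted p = 0.15), Ier2 (0.26) and Nr4a1 (0.54) were not called. Mice were allotted to diets by litter, and the labels give no litters, so animals of one strain and diet may share one while the tests treat them as independent. The calls rested on the test and in part on 1 strain. That of Egr1 held in only 2 of 11 alternatives (adjusted p from 0.026 to 0.85), those of Fos and Junb in 6 of 10, Fosb in 7 of 10, Atf3 and Nr4a3 in 8 of 11 and Btg2 in 9 of 11. With limma voom in place of edgeR 0 members were called (adjusted p from 0.078 to 0.74) and 0.641% of all genes, and with limma on the deposited log2 values 1 member, Atf3, was called. Without (CC024/GeniUncJ x CC002/UncJ)F1, 4 members were called and Fos (adjusted p = 0.063), Egr1 (0.59) and Junb (0.87) were not. The 20 strains split both ways, with Fos higher on 44% fat in 10, Atf3 in 11 and Nr4a3 in 8.

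In (CC024/GeniUncJ x CC002/UncJ)F1, with 12 untreated animals on each diet, Egr1 had a median of 2.9 CPM on 10% fat (range 2.38 to 6.61) and 7.86 CPM on 44% fat (range 2.23 to 17.5), a log2 difference of 1.03 ± 0.34 (SE). Its Junb went from a median of 4.63 CPM (range 3 to 24.5) to 10.3 CPM (range 3.67 to 29), its Fos from 3.24 CPM (range 1.48 to 18.8) to 7.06 CPM (range 1.02 to 35.9), and its Btg2 from 13.3 CPM (range 7.95 to 41.4) to 27.8 CPM (range 8.15 to 66.1). The groups overlapped for each gene. In all, 7 members of this strain were higher on 44% fat by more than 2 standard errors, each of them in both sexes. How many of all genes were so was not counted, and the strain is described because its median difference was the highest of the 20. Its Atf3 (-0.15 ± 0.59) and Nr4a3 (-1.13 ± 0.82) had differences below 0. Its metformin animals, 6 on each diet, did not show this pattern. Only 4 of 10 members were higher on 44% fat in them, with a median difference of -0.03 against 0.87 in the untreated ones. Of the 7 members, Egr1 differed by 0.53 ± 0.53 and Fosb by 0.17 ± 0.80 in the metformin animals, and Fos, Arc, Junb, Ier2 and Btg2 lay between -0.11 and -0.01.

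In untreated (CC009/UncJ x CC013/GeniUncJ)F1 mice, 4 on 10% and 6 on 44% fat, the largest differences were those of Atf3, Btg2 and Nr4a3. Atf3 had medians of 3.89 CPM (range 2.95 to 9.27) and 21.9 CPM (range 2.29 to 87.7), Nr4a3 of 7.02 CPM (range 5.52 to 8.17) and 21.8 CPM (range 5.54 to 48.1), and Btg2 of 8.7 CPM (range 8.02 to 9.14) and 25.9 CPM (range 9.58 to 55.9). The Btg2 groups did not overlap. The Junb difference of these mice was -0.14 ± 0.19. In the metformin animals of the strain, 6 on each diet, Atf3 differed by 0.03 ± 0.44 and Nr4a3 by -0.39 ± 0.37, against 1.94 ± 0.80 and 1.36 ± 0.52 in the untreated ones, and Btg2 by 0.64 ± 0.21 against 1.40 ± 0.41. At the other end, (CC002/UncJ x CC075/UncJ)F1 had the lowest differences of Atf3 (-1.40) and Nr4a3 (-1.97). The strain with the lowest median difference of the 20 was (CC075/UncJ x CC042/GeniUncJ)F1. It was lower on 44% fat for all 10 members, 4 of them by more than 2 standard errors, again without a count over all genes. In the metformin animals of this strain, 6 on each diet, 9 of 10 members were higher on 44% fat. Their median difference was 0.59 against -0.60 in the untreated ones. The errors were wide, with Fos at 0.59 ± 0.88, Fosb at 0.52 ± 0.70, Egr1 at -0.01 ± 0.70 and Arc at 0.33 ± 0.48. Members measured in the same animals are not independent, and whether the 2 treatments differ here was not tested. Over the 20 strains the diet differences of Fos and Egr1 (r = 0.86), of Egr1 and Ier2 (0.83), of Fosb and Junb (0.80) and of Atf3 and Nr4a3 (0.77) went together, and those of Egr1 and Nr4a3 did not (-0.20). These are descriptions over strains that share animals between genes. The metformin animals of the same strains, which are other mice, gave diet differences with r = 0.46 for Nr4a3 and 0.43 for Egr1 with those of the untreated ones, the latter with the same sign in 16 of 20 strains. The other 8 members had r between -0.39 and 0.16, and over 12007 genes the median was 0.03 and the 95th percentile 0.41.

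**Figure D5:**
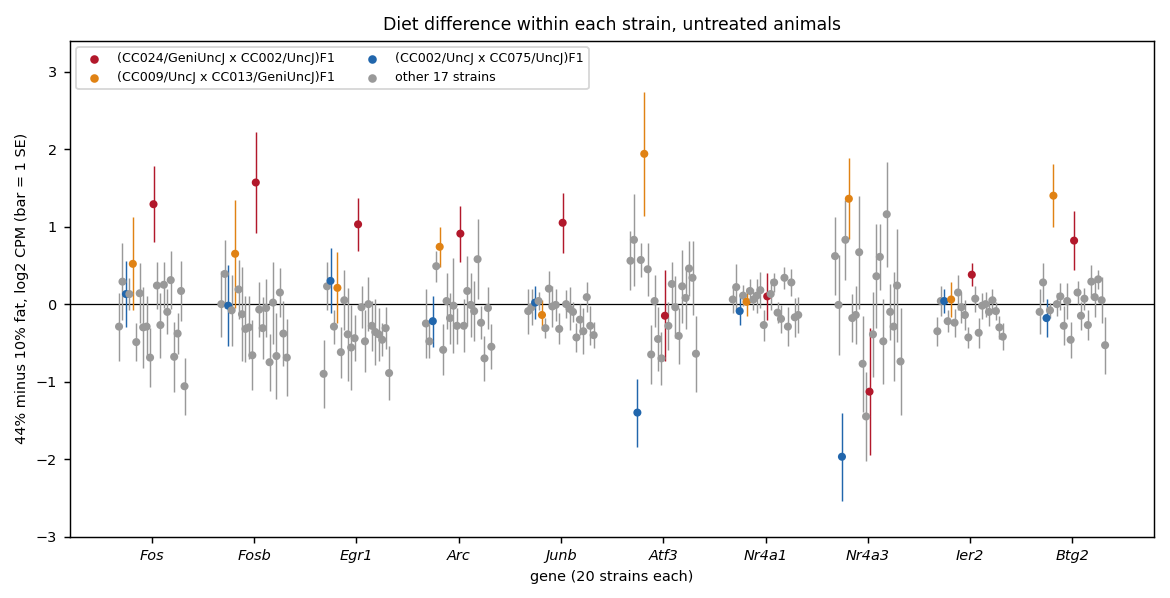
Diet difference in log2 CPM (44% minus 10% fat) of the 10 members in the untreated animals of each of the 20 strains, with bars of 1 standard error. The strain (CC024/GeniUncJ x CC002/UncJ)F1 (red) is above 0 for 8 members, (CC009/UncJ x CC013/GeniUncJ)F1 (orange) is highest for Atf3, Nr4a3 and Btg2, and (CC002/UncJ x CC075/UncJ)F1 (blue) is lowest for Atf3 and Nr4a3.

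A finer division of the animals, into 159 cells of the same strain, sex, diet and treatment, accounted for 19.9% of the variance of Arc left by the separate terms, 17.4% of that of Nr4a3 and 16.1% of that of Btg2, and for 7.26% of that of Ier2. The median gene had 5.53%, and Arc was at percentile 95.7 of 12007 genes.

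Metformin animals differed from untreated animals in 3 of 10 members, all lower, beside 11% of all 17740 genes lower and 8.34% higher (19.4% called). Nr4a1 had medians of 74.5 CPM in 469 untreated animals (range 30.3 to 262) and 65.7 CPM in 234 metformin animals (range 23.6 to 194), a log2 difference of -0.15 ± 0.04 (adjusted p = 0.0039), and was lower in 15 of 20 strains. Nr4a3 had medians of 6.75 CPM (range 0.45 to 152) and 4.83 CPM (range 0.458 to 91.8) and differed by -0.35 ± 0.12 (adjusted p = 0.029). Fosb had medians of 0.295 CPM (range 0 to 11) and 0.262 CPM (range 0 to 2.92) and differed by -0.33 ± 0.11 (adjusted p = 0.02). Btg2 at -0.12 (adjusted p = 0.086) and Egr1 at 0.13 (adjusted p = 0.23) were not called. Fosb lost its call by DESeq2 (adjusted p = 0.072), limma voom (adjusted p = 0.28) and limma on the deposited values (adjusted p = 0.21). Nr4a3 lost its call with 15 identifier blocks in place of the ranges (-0.32, adjusted p = 0.06), on the deposited values (adjusted p = 0.054) and without the libraries with high hepatocyte transcripts (adjusted p = 0.11). In the upper range alone none of the 3 was called. Of the other EGR and NR4A genes, 1 of 5 was called, Nr4a2 at -0.31 ± 0.12. Of 47 other immediate early genes, 5 were higher and 15 lower, with Gadd45g at -0.29 ± 0.08, the small G protein Rasd1 at -0.29 ± 0.06, Cebpd at -0.27 ± 0.07 and Csrnp1 at -0.25 ± 0.07. Heat shock genes were lower for 5 of 10, led by Hspa1a at -0.31 ± 0.11. Of 10 other AP-1 subunits 1 was higher and 3 were lower, with Fosl1 at 0.26 ± 0.07 and Jdp2 at -0.18 ± 0.04. Of 19 upstream factors 3 were higher and 1 lower (Crem at -0.10 ± 0.03), and of 15 clock genes 3 were higher and 1 lower (Per1 at -0.22 ± 0.06).

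The metformin difference depended on sex for 3 members, beside 3.12% of all genes. The interaction, male minus female, was below 0 for all 10, which share animals. Its median was -0.33 beside 0 for all genes. Heat shock genes were called for 6 of 10, all below 0, with a median of -0.22. Also called below 0 were 4 of 47 other immediate early genes, 1 of 10 other AP-1 subunits and 1 of 5 other EGR and NR4A genes. Of 19 upstream factors 1 was called, above 0, and of 15 clock genes 0. For Arc the interaction was -0.75 ± 0.15 (adjusted p = 0.00076), for Atf3 -0.69 ± 0.17 (adjusted p = 0.012) and for Junb -0.33 ± 0.10 (adjusted p = 0.03). Arc had medians of 0.65 CPM in untreated and 0.705 CPM in metformin females, and of 0.581 CPM in untreated and 0.421 CPM in metformin males. Atf3 had 4.71 and 5.23 CPM in females and 4.15 and 3.8 CPM in males, and Junb 4.25 and 4.44 CPM in females and 4.01 and 3.99 CPM in males. By least squares on log2 CPM the metformin difference of Arc was 0.18 ± 0.11 in females and -0.48 ± 0.11 in males, and that of Atf3 was 0.18 ± 0.12 and -0.25 ± 0.12. By limma voom only Arc was called (interaction -0.61, adjusted p = 0.03), with Atf3 at -0.41 (adjusted p = 0.16) and Junb at -0.25 (adjusted p = 0.13). The call of Junb held in only 3 of 9 alternatives, and was also lost with identifier blocks (-0.30, adjusted p = 0.067) and without the libraries with high hepatocyte transcripts (-0.27, adjusted p = 0.13). Within the lower identifier range the interaction was -0.50 for Arc (adjusted p = 0.081), -0.80 for Atf3 (adjusted p = 0.021) and -0.32 for Junb (adjusted p = 0.13), and within the upper range it was -0.61, -0.52 and -0.38, none of them called. The metformin difference depended on diet for 0 members (0.0902% of all genes, with 0 at an unadjusted p under 0.05, and 0 called by limma voom) and on identifier range for 0 members (1.71% of all genes, with 0 at an unadjusted p under 0.05 and 0 called by limma voom).

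Between the identifier ranges, 1 member was called in the untreated animals: Nr4a1 was lower in the upper range, with medians of 78.9 CPM in 400 animals (range 30.3 to 262) and 62.7 CPM in 69 animals (range 41.6 to 176), a log2 difference of -0.22 ± 0.08 (adjusted p = 0.03). These medians compare different mixes of strains, since only 9 strains held untreated animals in both ranges, and Nr4a1 was lower in the upper range in 6 of those 9, with a median difference of -0.12. Of all genes 22.4% were called, 12.4% higher and 10% lower. By limma voom the call of Nr4a1 was lost (-0.18, adjusted p = 0.086), as it was on the deposited values (-0.17, adjusted p = 0.091) and without the libraries with high hepatocyte transcripts (-0.21, adjusted p = 0.10). Nr4a3 differed by -0.58 ± 0.24 (adjusted p = 0.06), and by -0.70 (adjusted p = 0.023) without the libraries that went against their labels. Arc differed by 0.32 (adjusted p = 0.094). Other genes of the families differed more. Of 5 other EGR and NR4A genes 4 were higher in the upper range, led by Egr3 at 1.25 ± 0.21. Of 46 other immediate early genes 3 were higher and 12 lower in the upper range, with Ptgs2 at 0.92 ± 0.16 and Gadd45g at -0.68 ± 0.17. Of 15 clock genes 4 were higher and 6 lower, with Dbp at -0.51 ± 0.11, Per2 at -0.47 ± 0.11 and Per1 at -0.41 ± 0.11, and 2 of 8 other AP-1 subunits were lower, with Jund at -0.24 ± 0.05. Of the heat shock genes 1 of 10 was lower (Hspb1 at -0.29 ± 0.07), and of 19 upstream factors 3 were higher and 4 lower. Hepatocyte markers were higher for 4 of 7, with a median log2 difference of 0.94, and red blood cell markers for 5 of 5, with 0.66. Their part in these differences was not tested. By least squares on log2 CPM, the metformin difference of Nr4a3 was -0.41 ± 0.14 within the lower range and -0.02 ± 0.23 within the upper range, and that of Nr4a1 was -0.18 ± 0.05 and -0.04 ± 0.08, although the interaction with range was not called for either.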

How the data were processed

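Gastrocnemius RNA was sequenced after poly(A) selection, 1 library per mouse. The authors aligned reads to a transcriptome of the 8 founder strains and divided them between genes by EMASE in GBRS (versions not given in the sources used here), and deposited the expected counts per gene rounded to whole numbers, with low genes removed. They also deposited values from the variance-stabilising transformation of DESeq2, on a log2 scale, used here only as an alternative. The build is GRCm38.

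Here the expected counts were tested with edgeR 4.0.16 (R 4.3.3): genes passing its filter by group, TMM factors, quasi-likelihood fits and Benjamini-Hochberg adjustment over all genes tested, called at an adjusted p under 0.05. Untreated animals were fitted with strain, sex, diet and identifier range, and all animals with treatment added, each interaction in a fit of its own. Age could not be a term in any fit, because the labels do not give it. CPM used TMM library sizes, and log2 CPM a prior count of 2. Covariation used residuals and 100000 permutations. Promoters were RefSeq's, gene lengths those of GENCODE M21. In simulated sex differences over 16384 genes, 78% of 50 genes changed 1.2-fold and 100% of 50 changed 1.5-fold were recovered. The changed genes were drawn at random from all genes tested, whose median residual standard deviation was 0.29. The members had 0.42 to 1.41, and recovery at their spread was not simulated.

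Alternatives were DESeq2 1.42.0 and limma 3.58.1 (voom, or the deposited values), DESeq2 size factors, other filters on low counts, 15 identifier blocks as the batch term, each range alone, and leaving out libraries. The members and lists were chosen with earlier results of these data known. All members are named, and of each list the called genes with the largest log2 differences, except 1 that is not reported here. Per the study's methods, housing and diet were allotted by litter. The labels name no litter or cage, so animals may share one, and p-values measure the spread between animals taken as independent. Intervals of counting error are narrow at these depths except for Fosb and Arc.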

Additional observations from a re-analysis of the deposited data

Results flagged for a closer look

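The metformin difference of 3 genes depended on sex by the test of the interaction itself (male minus female, edgeR quasi-likelihood test over all animals of both treatments). It was -0.75 ± 0.15 on the log2 scale for Arc (adjusted p = 0.00076), -0.69 ± 0.17 for Atf3 (adjusted p = 0.012) and -0.33 ± 0.10 for Junb (adjusted p = 0.03). The call of Junb held in 3 of 9 alternatives. Of 10 heat shock genes 6 were called in the same direction. Age and treatment cannot be told apart in either sex.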

How the results depend on the processing

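For the 21 member counts that moved by over 1.5 times, with a filter at a mean of 5 CPM only 5 members were tested, of which strain called 5, sex 3, identifier range 2 and diet by strain 3. In the upper identifier range alone, with fewer animals, 1 member was called for sex, 0 for diet, 0 for metformin, 1 for diet by strain and 0 for metformin by sex, and in the lower range 1 for metformin by sex. Limma voom called 0 for identifier range, 0 for diet by strain and 1 for metformin by sex, and limma on the deposited values 0, 1 and 1, and 1 for metformin. DESeq2 called 2 for identifier range, as did the fit without libraries against their labels. Without (CC024/GeniUncJ x CC002/UncJ)F1, chosen after seeing the data, diet called 2 and diet by strain 4. Apart from the smaller samples and tables, the cause was not tested. Strain called every member tested under all alternatives, and the 43 correlated pairs stayed between 39 and 43.

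Of the values that changed sign, 1 had been called: metformin on Nr4a3 was 0.01 in the upper range. The others were not called. In the upper range sex gave 0.22 for Fos, 0.04 for Junb, 0.23 for Atf3, 0.01 for Nr4a1 and 0.23 for Btg2, diet gave 0.11 for Arc, -0.05 for Nr4a1 and 0.29 for Nr4a3, metformin 0.15 for Fos, diet by sex -0.04 for Arc and -0.12 for Nr4a3, and metformin by diet 0.02 for Fosb, -0.52 for Atf3, 0.14 for Nr4a1, -0.59 for Nr4a3 and -0.22 for Btg2. In the lower range diet gave 0.05 for Fosb, diet by sex -0.18 for Fos, and metformin by diet 0.09 for Arc and 0.02 for Junb. Without libraries against their labels sex gave 0.01 for Atf3 and diet 0.04 for Nr4a3. Limma voom gave 0.03 for Fos, 0.27 for Fosb and 0.01 for Junb by identifier range, 0.03 for Fos by metformin, -0.02 for Fos and -0.17 for Fosb in diet by sex and -0.08 for Fosb in metformin by identifier range. The deposited values gave 0.02 for Fosb and 0.01 for Junb by identifier range, 0.02 for Fos by metformin and 0 for Fos in diet by sex, DESeq2 gave 0 for Fos by metformin, and without high hepatocyte libraries Junb by identifier range was 0.01. The cause was not tested. No paired analysis was possible because all labels carry the same replicate number.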
